A study of Homo sapiens with 42 samples.

Results

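A set of 10 genes of the MiT/TFE pathway was followed: ATP6V0D2, TFEB, TFE3, MITF, FLCN, FNIP1, FNIP2, RRAGC, RRAGD and GPNMB. These are 10 of the 28266 gene symbols in the count table. They were chosen by pathway (the MiT/TFE transcription factors, the folliculin complex, Rag GTPases and typical targets) and, for ATP6V0D2, by a readout of these same libraries, since both COPB2 shRNAs raised it in RAS senescence. The values of ATP6V0D2 in RAS senescence are therefore given as a description, without a test. All 10 passed the filter on low counts in both cell lines, but ATP6V0D2 and RRAGD only through the senescent libraries in which they were high. Counts and medians are therefore given over the other 8 genes, except where all 10 are stated.

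The study sequenced poly(A) RNA of human lung fibroblasts in 42 libraries to learn what depletion of COPB2, a subunit of the COPI vesicle coat, does to senescent cells. IMR90 is an established strain of lung fibroblasts. IMR90 ER:RAS cells also carry a fusion of oncogenic RAS with the oestrogen receptor, which 4-hydroxytamoxifen (4OHT) switches on. Each cell line carried a doxycycline-inducible control shRNA, COPB2 shRNA 1 or COPB2 shRNA 2. ER:RAS cells received DMSO or 100 nM 4OHT, which leads to oncogene-induced senescence (OIS), with 3 libraries for each shRNA. IMR90 cells received DMSO or bleomycin, a DNA-damaging drug that drives cells into senescence, at 50 µg/ml for 24 h, and each shRNA had 4 libraries. In all 12 groups, the controls included, doxycycline at 1 µg/ml was added after 7 days for 72 h and RNA was taken at day 10. The cells come from a single strain. The labels do not say what a replicate is, and the study describes the replicates behind these comparisons as independent experiments.

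MITF, TFEB, TFE3 and TFEC form a family of helix-loop-helix transcription factors that bind E-box sequences near genes of the lysosome and of autophagy. When amino acids are plentiful, Rag GTPases (RRAGA or RRAGB paired with RRAGC or RRAGD) recruit mTORC1 and these factors to the lysosome, where mTORC1 phosphorylates the factors and holds them in the cytoplasm. Folliculin (FLCN), with its partners FNIP1 and FNIP2, acts on RRAGC and RRAGD in this step. RRAGD, FLCN, FNIP2 and GPNMB are known targets of the factors, and ATP6V0D2 is a subunit of the proton pump of the lysosome, the V-ATPase, best known from osteoclasts and macrophages. Because activity of the factors is set largely by where the proteins are in the cell, RNA levels show their supply and not their activity.

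Both guide strands are printed because every knockdown comparison rests on them. They are shown 5′ to 3′ with the seed (bases 2 to 8) in capitals. Each is complementary over its 22 bases to a single site in a coding exon of COPB2 (GRCh37, minus strand).
COPB2 shRNA 1: tTAAATATctttacaatgctgt
COPB2 shRNA 2: tAATTGAAcactctaatctgca
The site of the first is at chr3:139088345-139088366 in exon 11 of 22, and that of the second at chr3:139097987-139098008 in exon 4. Both are those listed under the same numbers in the study's table of shRNAs. As a check of the labels, COPB2 stood at 267 to 620.4 CPM (counts scaled to a common library size, with TMM factors for composition) in 14 control shRNA libraries. In the 28 libraries with a COPB2 shRNA it stood at 33.9 to 122 CPM, so the ranges did not overlap.

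Total counts ran from 13148194 to 23597310 per library, and 3 counts, the floor used here, correspond to 0.110 to 0.271 CPM. Reads carry no molecular identifiers, so the floor covers counting error only. Replicates differed within groups: the first principal component held 76.3% of that variance in ER:RAS and 51.7% in IMR90. They also differed in base composition. A library's GC coefficient (the Spearman correlation, across genes, of its deviation from its group mean with transcript GC content) ran from -0.82 to 0.82. How closely the component follows this coefficient is not given here. Several of the 10 genes moved with the coefficient, and those values stand beside their results.

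In both models of senescence ATP6V0D2 and RRAGD were higher than with DMSO and GPNMB was lower, whichever shRNA was present, and FLCN was lower in bleomycin senescence. In bulk RNA, a change in the share of cells that express a gene cannot be told apart from a change in RNA per cell. A gene was called when edgeR's quasi-likelihood test gave a Benjamini-Hochberg adjusted p under 0.05 over all genes tested in its cell line. With the control shRNA, 2 of the 8 genes other than ATP6V0D2 and RRAGD were called in OIS, RRAGC and GPNMB, both lower. Of all 14297 genes tested there, 35.7% were called, 15.5% higher and 20.2% lower. In bleomycin senescence 2 of the 8 were called, FLCN and GPNMB, both lower, where 31.2% of 14783 genes were called, 15.4% higher and 15.8% lower. With COPB2 shRNA 1, 1 of the 8 was called in OIS (36.9% of all genes) and 2 in bleomycin senescence (35.2%). COPB2 shRNA 2 gave 2 calls in OIS (36.9%) and 3 in bleomycin senescence (40%). These counts are near or below what the shares of all genes give, so they show nothing particular to the set. The median log2 fold change of the 8 was -0.42 in OIS and -0.40 in bleomycin senescence with the control shRNA, against -0.08 and -0.01 for all genes.

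**Figure D1:**
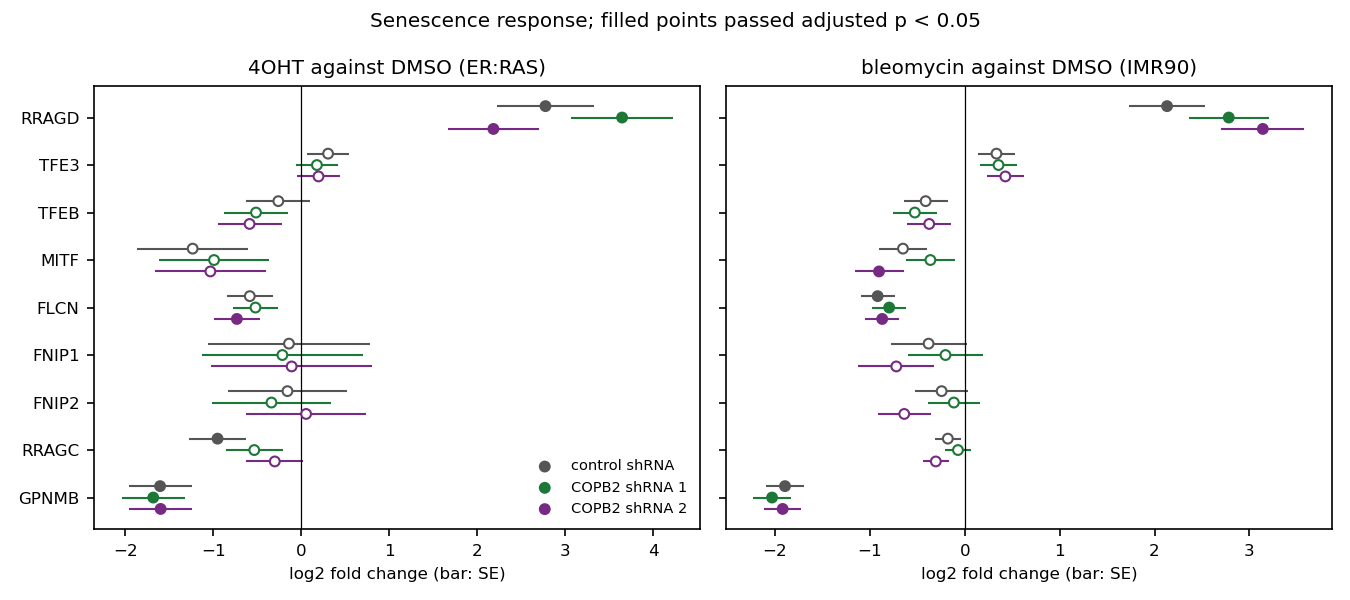
Log2 fold changes of 9 of the genes (x axis) in senescent against DMSO-treated cells, in ER:RAS (left) and IMR90 (right), by shRNA, from the fit with the filter on low counts; bars are the standard error of the fit and filled points passed an adjusted p of 0.05. RRAGD lies right of 0 and GPNMB left of 0 in all 6 comparisons. RRAGD passed the filter through the senescent libraries alone, so its tests are those of the fit with no filter, given in the text.

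ATP6V0D2 (ENSG00000147614; chromosome 8, 86999552 to 87166454, GRCh37, plus strand) encodes a d subunit of the membrane sector of the V-ATPase. In proliferating cells it was near the limit of detection: the 9 ER:RAS libraries with DMSO held 0 to 4 counts and the 12 IMR90 libraries with DMSO 0 to 2. In OIS with the control shRNA its level was 2.44, 3.37 and 3.23 CPM, from 27, 51 and 51 counts. With COPB2 shRNA 1 in OIS it was 14.8, 20.7 and 31.5 CPM. With COPB2 shRNA 2 it was 14.9, 22.04 and 39.6 CPM, from 195, 345 and 720 counts. Every library with a COPB2 shRNA in OIS thus lay above every library with the control shRNA, at 7.40 times its level with shRNA 1 and 8.47 times with shRNA 2 in the fit (log2 fold changes of 2.89 and 3.08, each with SE 0.48). This is the difference for which the gene was chosen. Of all genes tested, 6.36% had no overlap with the control in OIS with shRNA 1 and 7.83% with shRNA 2. Replicate 3 was the highest library with either shRNA, and its GC coefficient was -0.66 with shRNA 1 and -0.68 with shRNA 2. Across the 18 ER:RAS libraries the deviation of ATP6V0D2 from its group mean correlated with the library GC coefficient at r = -0.60. The part of library composition in these levels was not tested beyond the correction for it, under which the differences were 2.80 and 2.97. Among all 14297 genes tested, 0.14% were called with shRNA 1 and 0.224% with shRNA 2 in that comparison, and none of the other 9 genes was among them.

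Bleomycin senescence gave values that the choice of the gene did not use. There ATP6V0D2 stood at 1.15, 0.860, 1.15 and 1.71 CPM with the control shRNA, against 0, 0, 0 and 1 counts in the matching DMSO libraries. As all DMSO libraries were at or under the floor of 3 counts per library, the group mean was at least 7.83-fold higher than DMSO. The same bound was 17.3-fold with COPB2 shRNA 1 and 13.8-fold with COPB2 shRNA 2, and all 12 bleomycin libraries lay above all 12 DMSO libraries. Within single shRNAs, 28 to 35.4% of all genes had no overlap between bleomycin and DMSO. Since the gene passed the filter through the bleomycin libraries, the test is given from the fit with no filter on low counts, where the adjusted p was 1.31e-05 for the control shRNA, 6.87e-07 for COPB2 shRNA 1 and 1.87e-06 for COPB2 shRNA 2. In OIS the bound was 18.55-fold with the control shRNA.

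Knockdown of COPB2 in bleomycin senescence did not give a call for ATP6V0D2. Its level was 1.35, 1.38, 1.22 and 5.78 CPM with shRNA 1 and 1.84, 1.71, 2.02 and 2.90 CPM with shRNA 2. For shRNA 1 this was a log2 difference of 1.02 from the control (approximate 95% interval 0.09 to 1.94, adjusted p = 0.9998), and for shRNA 2 one of 0.81 (interval -0.12 to 1.74, adjusted p = 0.759). The first value rests on replicate 4, the highest library of its group: without it the log2 fold change was 0.10. Replicate 4 was also the highest in both other bleomycin groups. Whether the effect of knockdown on this gene differs between OIS and bleomycin senescence was not tested.

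**Figure D2:**
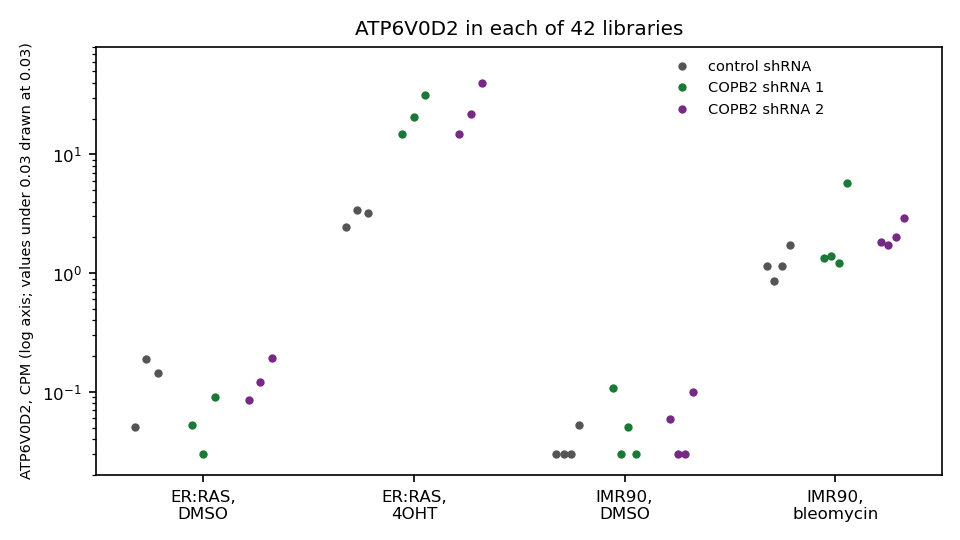
ATP6V0D2 in CPM (y axis, log scale, values under 0.03 drawn at 0.03) in each library, by cell line and treatment (x axis) and shRNA (colour). The 6 OIS libraries with a COPB2 shRNA lie between 14.8 and 39.6 CPM and the 3 with the control shRNA between 2.44 and 3.37.

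Ordered by mean level, the groups ran from OIS with shRNA 2 (25.5 ± 12.7 CPM, SD, n = 3) and shRNA 1 (22.4 ± 8.45, n = 3) to OIS with the control shRNA (3.01 ± 0.504, n = 3). Bleomycin with shRNA 1 (2.43 ± 2.23, n = 4), shRNA 2 (2.12 ± 0.537, n = 4) and the control shRNA (1.22 ± 0.356, n = 4) came next, and the 6 DMSO groups last, all at 0.133 CPM or less. Neighbours in this order overlapped in their libraries at all but 2 steps: between the COPB2 shRNAs and the control shRNA in OIS, and between bleomycin and DMSO. Genes that overlap ATP6V0D2 on the opposite strand include PSKH2, which had 0 counts in all 18 ER:RAS libraries and at most 5 in any bleomycin library. ENSG00000253675 on that strand, and RPL32P4 and RPL36AP31 on the same strand, also overlap it. Their counts were not examined, so whether ATP6V0D2 shares reads with them was not tested.

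ATP6V0D1, the paralogue that encodes the d subunit of most tissues, remained the main form everywhere. Per kilobase of transcript, ATP6V0D2 made up 0.749 ± 0.547% of the summed CPM of both genes in OIS under the control shRNA (SD, n = 3), 5.21 ± 4.11% under shRNA 1 and 5.84 ± 5.28% under shRNA 2, and at most 11.9% in any library. In bleomycin senescence the share was 0.399 ± 0.224% with the control shRNA (n = 4), and no DMSO library exceeded 0.0862%. ATP6V0D1 itself was not called, with log2 fold changes of 0.55 (SE 0.47, adjusted p = 0.403) in OIS and 0.42 (SE 0.30, adjusted p = 0.318) in bleomycin senescence. Its 4OHT libraries ranged from 165 to 683.6 CPM, with the highest value in replicate 1 with the control shRNA, whose GC coefficient was 0.71. That library has the lowest of the ATP6V0D2 shares in OIS, 0.245%.

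Of the transcription factors, TFE3 (ENSG00000068323; chromosome X, 48886237 to 48900936, minus strand) was by far the most abundant. With the control shRNA, its level per kilobase was 47.4 ± 10.5 CPM in IMR90 with DMSO (SD, n = 4), where MITF had 6.61 ± 1.65, TFEB 3.44 ± 0.576 and TFEC 0.0132 ± 0.00645. TFE3 thus made up 76.4 to 88.4% of the summed level of the 4 factors in the 12 IMR90 libraries with DMSO and 86.0 to 92.7% in the 12 with bleomycin. In ER:RAS its share was 82.8 to 91.7% with DMSO and 91.2 to 95.1% with 4OHT.

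None of the 4 senescence comparisons with a COPB2 shRNA, nor the 2 with the control shRNA, gave a call for TFE3, whose log2 fold changes lay between 0.18 and 0.43, or for TFEB, between -0.59 and -0.26. MITF (ENSG00000187098; chromosome 3, 69788607 to 70017487, plus strand) was called once, lower in bleomycin senescence with COPB2 shRNA 2 (-0.90, SE 0.26, adjusted p = 0.00789). In OIS with the control shRNA MITF was at 3.70, 8.86 and 15.3 CPM against 23.8, 11.3 and 26.7 with DMSO, so the groups overlapped (-1.23, SE 0.63, adjusted p = 0.149). TFEC reached 1 to 32 counts in bleomycin libraries and 0 to 6 in all others.

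Levels of the factors moved with the composition of the libraries. Across the 18 ER:RAS libraries the deviation of MITF from its group mean correlated with the library GC coefficient at r = -0.96, that of TFE3 at r = 0.95 and that of TFEB at r = 0.85, and across the 24 IMR90 libraries at -0.69, 0.88 and 0.72. These libraries share the differences in base composition described above, and the correlations are given without a test. When each library's trend over transcript GC content and length was removed, an alternative added after the data had been seen, MITF passed the test in OIS with the control shRNA (-1.13, adjusted p = 0.000137), and so did TFE3 (0.35, adjusted p = 0.00197) and TFEB (-0.43, adjusted p = 0.0348).

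**Figure D3:**
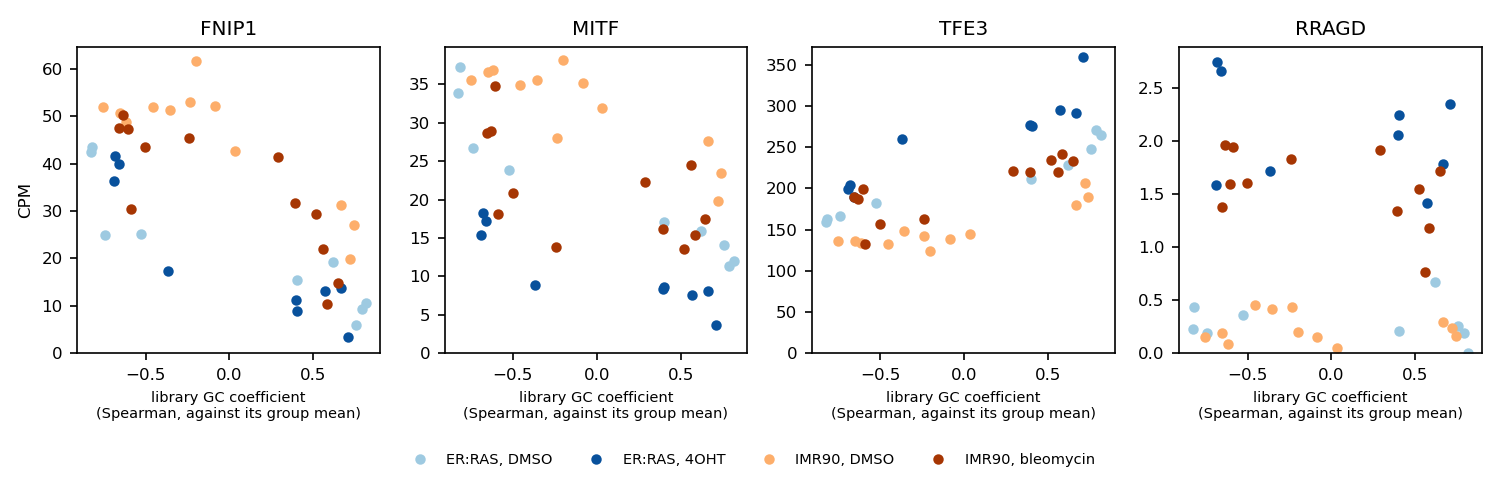
CPM (y axis) of FNIP1, MITF, TFE3 and RRAGD in each of 42 libraries against the library GC coefficient (x axis), coloured by cell line and treatment. FNIP1 and MITF tend to be lower and TFE3 higher in libraries with a high coefficient, while the RRAGD levels of senescent and DMSO-treated cells stay apart along it.

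FLCN (ENSG00000154803; chromosome 17, 17115526 to 17140502, minus strand), the folliculin gene, was lower in bleomycin senescence. With the control shRNA its level was 80.3, 77.0, 52.0 and 75.1 CPM with DMSO and 43.7, 37.3, 32.8 and 39.8 CPM with bleomycin. The highest of the bleomycin libraries lay under the lowest of the DMSO libraries, and the log2 fold change was -0.92 (SE 0.18, adjusted p = 0.000431). In that comparison 28% of all genes tested had no overlap between the groups. COPB2 shRNAs 1 and 2 gave -0.80 (adjusted p = 0.00133) and -0.87 (adjusted p = 0.000567), each with SE 0.18. In OIS the ranges overlapped: 60.8, 82.4 and 39.7 CPM with DMSO and 55.3, 41.9 and 33.01 CPM with 4OHT under the control shRNA (-0.58, SE 0.26, adjusted p = 0.0934). FLCN was called in OIS only with COPB2 shRNA 2 (-0.73, SE 0.26, adjusted p = 0.0369), a call that was lost in 5 of the 6 fits that left out a library, where the adjusted p reached 0.198. The deviation of FLCN from its group mean correlated with the library GC coefficient at r = 0.89 in ER:RAS and 0.58 in IMR90. With the GC and length correction FLCN passed the test in OIS also with the control shRNA (-0.45, adjusted p = 0.00183) and with COPB2 shRNA 1 (-0.30, adjusted p = 0.0255).

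The partners FNIP1 (ENSG00000217128; chromosome 5, 130977407 to 131132710, minus strand) and FNIP2 (ENSG00000052795; chromosome 4, 159690178 to 159829202, plus strand) were not called in any of the 6 senescence comparisons. FNIP1 spread widely between replicates: in OIS with the control shRNA it was 3.34, 17.3 and 36.4 CPM, the lowest in the replicate 1 library named above, and over all 9 OIS libraries it ran from 3.34 to 41.6 CPM. FNIP2 had 3.70, 9.12 and 15.4 CPM in those 3 libraries. Their deviations correlated with the library GC coefficient at r = -0.90 and -0.93 in ER:RAS and at r = -0.80 and -0.69 in IMR90. Standard errors of 0.91 to 0.92 for FNIP1 and 0.68 for FNIP2 in OIS mean that a change of 1 on the log2 scale was not detectable there. Per kilobase, FNIP1 was the larger of the pair in most libraries, at 49.2 to 77.5% of their sum.

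RRAGD (ENSG00000025039; chromosome 6, 90074335 to 90121992, minus strand), which encodes a Rag GTPase that pairs with RRAGA or RRAGB, rose in both models. With the control shRNA it was at 0.357, 0.190 and 0.192 CPM in ER:RAS cells with DMSO and at 2.35, 1.72 and 1.58 CPM in OIS. In IMR90 it was at 0.239, 0.459, 0.196 and 0.421 CPM with DMSO and at 1.34, 1.72, 1.38 and 1.61 CPM with bleomycin. Over all shRNAs, the 9 OIS libraries (1.42 to 2.75 CPM) lay above the 9 with DMSO (0 to 0.669), and the 12 bleomycin libraries (0.769 to 1.964) above the 12 with DMSO (0.0469 to 0.459). Within single shRNAs, 38.5 to 46.5% of all genes had no overlap in OIS and 28 to 35.4% in bleomycin senescence. These levels are low: DMSO libraries held 0 to 12 counts and senescent libraries 15 to 50. The deviation of RRAGD from its group mean correlated with the library GC coefficient at r = -0.48 in ER:RAS and -0.12 in IMR90. The following values are from the fit with no filter on low counts, since RRAGD passed the filter through the senescent libraries. The log2 fold change with the control shRNA was 2.83 (SE 0.54, adjusted p = 0.000723) in OIS and 2.11 (SE 0.41, adjusted p = 0.000353) in bleomycin senescence. With COPB2 shRNA 1 it was 3.70 in OIS (SE 0.57, adjusted p = 8.26e-05) and 2.76 in bleomycin senescence (SE 0.42, adjusted p = 1.85e-05). The values with COPB2 shRNA 2 were 2.23 in OIS (SE 0.51, adjusted p = 0.00316) and 3.11 in bleomycin senescence (SE 0.44, adjusted p = 6.17e-06).

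RRAGC (ENSG00000116954; chromosome 1, 39303870 to 39325444, minus strand), its paralogue, was the main form of the pair: per kilobase RRAGD made up 1.68 to 4.33% of their sum in OIS and 0 to 0.670% in ER:RAS cells with DMSO. RRAGC was at 28.3, 44.7 and 50.6 CPM in OIS with the control shRNA and at 82.6, 51.2 and 89.0 CPM with DMSO, and the fitted change was -0.95 on the log2 scale (SE 0.32, adjusted p = 0.0323). The call depended on single libraries. It was lost without replicate 1 or 2 of the 4OHT group or replicate 1 or 3 of the DMSO group, with adjusted p from 0.0680 to 0.133, and it was not made with either COPB2 shRNA (-0.53 and -0.30) or in bleomycin senescence (-0.30 to -0.07). In ER:RAS its deviation from the group mean followed the library GC coefficient at r = -0.82, and in IMR90 at r = -0.28.

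The partners of these GTPases were RRAGA and RRAGB, which were not among the 10 genes. RRAGB fell in both models, from 27.8 ± 10.0 to 6.79 ± 0.572 CPM in OIS (SD, n = 3; log2 fold change -2.14, SE 0.30, adjusted p = 4.90e-05) and from 31.5 ± 5.57 to 20.4 ± 2.81 CPM in bleomycin senescence (n = 4; -0.66, SE 0.15, adjusted p = 0.00180). The difference between both responses was itself called (-1.40, SE 0.28, adjusted p = 0.000308). RRAGA, the more abundant of the pair, was not called (0.51, SE 0.27 in OIS and 0.23, SE 0.16 in bleomycin senescence). Per kilobase RRAGB was 5.18 to 14.9% of their sum in ER:RAS cells with DMSO and 1.14 to 2.83% in OIS.

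**Figure D4:**
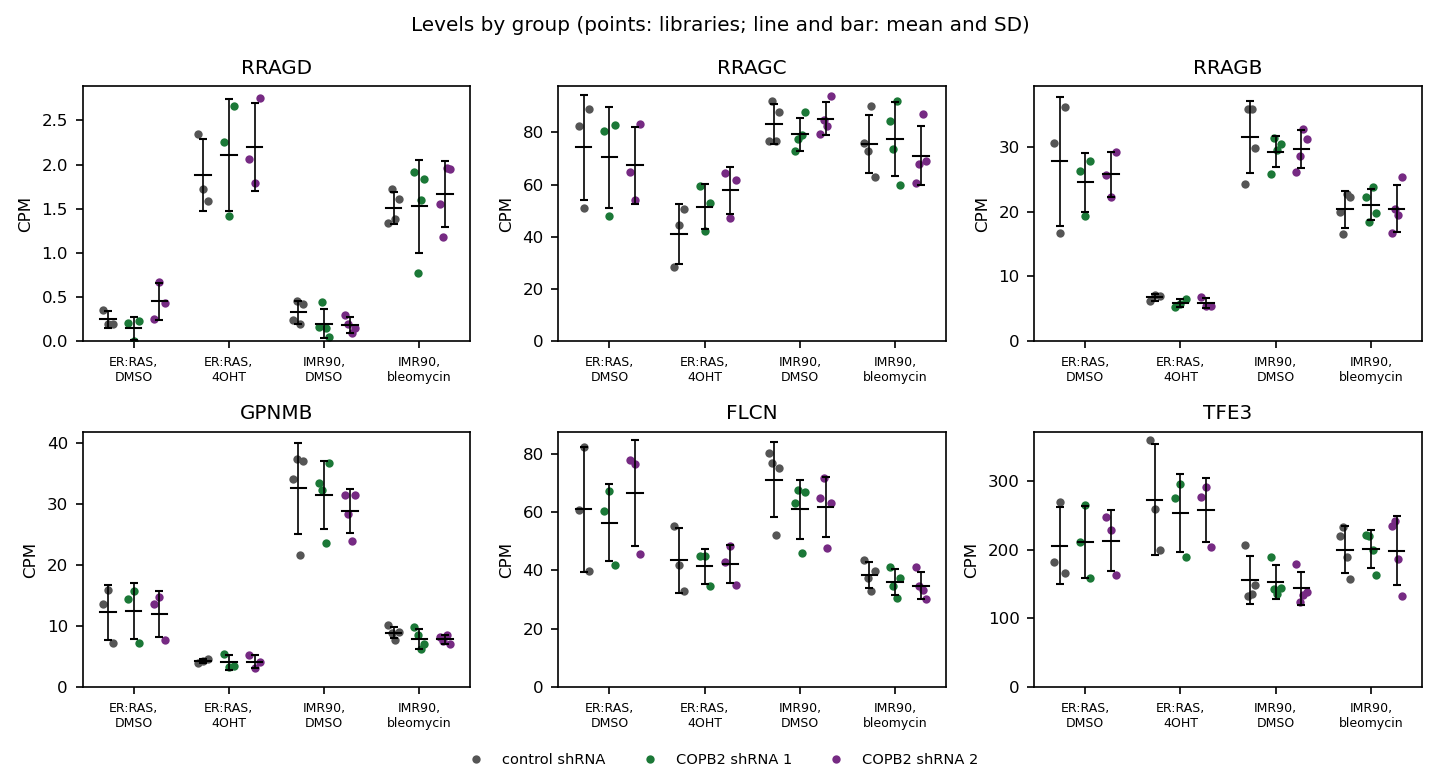
CPM (y axis) of RRAGD, RRAGC, RRAGB, GPNMB, FLCN and TFE3 by cell line and treatment (x axis) and shRNA (colour); points are libraries, lines the mean and bars the SD. RRAGD is higher and GPNMB lower in senescent than in DMSO-treated cells in both lines, and RRAGB is at 5.34 to 7.20 CPM in the 9 OIS libraries.

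GPNMB (ENSG00000136235; chromosome 7, 23275586 to 23314727, plus strand) encodes a glycoprotein of melanosomes and lysosomes and is often used as a readout of MITF and TFE3. Its level with the control shRNA was 13.7, 15.9 and 7.22 CPM in ER:RAS cells with DMSO and 3.97, 4.23 and 4.56 CPM in OIS. In IMR90 it was 34.04, 37.4, 21.6 and 37.0 CPM with DMSO and 10.1, 8.77, 7.77 and 9.08 CPM with bleomycin. No senescent library of either line reached the lowest DMSO library of that line. With the control shRNA, 38.5% of all genes had no overlap in OIS and 28% in bleomycin senescence. The log2 fold change was -1.60 (SE 0.36, adjusted p = 0.00243) in OIS and -1.89 (SE 0.20, adjusted p = 3.82e-07) in bleomycin senescence. It was -1.68 and -1.60 in OIS and -2.03 and -1.92 in bleomycin senescence with COPB2 shRNAs 1 and 2, with adjusted p from 1.24e-07 to 0.00244. Its deviation from the group mean correlated with the library GC coefficient at r = 0.47 in ER:RAS and 0.53 in IMR90.

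Promoter windows (250 bases before to 50 after the start of transcription, RefSeq, GRCh38.p14) were found for 8 of the 10 genes, 13 windows in all. They were searched on both strands for the E-box CACGTG, the CLEAR core TCACGTGA that contains it, the short M-box CATGTG and the M-box TCATGTGA that contains it. The E-box was in 7.26% of all 35116 windows and, here, in those of FNIP1 and RRAGC. No window of the set held the CLEAR core, which 0.98% of all windows hold. The short M-box was in 11.1% and the M-box in 1% of all windows and, here, both in those of GPNMB and FNIP2. Windows of GPNMB, which was called in all 6 senescence comparisons, and of RRAGC are printed 5′ to 3′ with these motifs in capitals, from chr7:23246525-23246824 (plus strand) and chr1:38859723-38860022 (minus strand).
GPNMB: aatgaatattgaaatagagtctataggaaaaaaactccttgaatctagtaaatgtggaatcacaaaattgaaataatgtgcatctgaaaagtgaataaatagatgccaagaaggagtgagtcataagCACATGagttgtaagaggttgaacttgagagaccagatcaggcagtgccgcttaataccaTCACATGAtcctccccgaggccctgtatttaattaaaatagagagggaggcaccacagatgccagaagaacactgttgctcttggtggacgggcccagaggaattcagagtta
RRAGC: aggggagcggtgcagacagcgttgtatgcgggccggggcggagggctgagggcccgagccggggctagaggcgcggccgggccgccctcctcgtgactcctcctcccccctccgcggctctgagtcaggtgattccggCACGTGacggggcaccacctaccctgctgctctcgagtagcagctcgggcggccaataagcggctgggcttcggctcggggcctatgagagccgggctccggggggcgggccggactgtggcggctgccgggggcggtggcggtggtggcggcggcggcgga
The windows read CACATG and TCACATGA because the M-boxes lie on the other strand. The M-box of GPNMB begins 63 bases before the start of transcription. A match describes the letters of a window and does not show that a factor binds there.

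Outside OIS, knockdown of COPB2 was tested in 3 states and none of the 10 genes was called. In ER:RAS cells with DMSO, 0 of 10 were called with each shRNA, where 0.00699% of all genes were, and the other 9 genes than ATP6V0D2 had log2 fold changes from -0.69 to 0.24 with shRNA 1 and from -0.18 to 0.83 with shRNA 2. In IMR90 cells with DMSO, 0 of 10 were called with each shRNA, where 0.00676% of all genes were. In bleomycin senescence 0 of 10 were called with shRNA 1, where 0.00676% of all genes were, and with shRNA 2, where 0.0744% were. With DMSO, and with shRNA 1 in bleomycin senescence, the share was 1 gene, COPB2 itself. A count of 0 of 10 therefore shows nothing particular to the set. At an unadjusted p under 0.05 edgeR counted 1 gene in those 6 comparisons, ATP6V0D2 with shRNA 1 in bleomycin senescence, and DESeq2 called 0. In OIS the 9 genes other than ATP6V0D2 had log2 fold changes from -0.26 to 0.31 with shRNA 1 and from -0.40 to 0.47 with shRNA 2, with RRAGC at the upper end and TFEB at the lower end of both. Both shRNAs were compared with the same control libraries.

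Whether the effect of each shRNA differed between senescent and DMSO-treated cells gave no call in either line, for the 10 genes or for any gene (0% of all genes tested in each of the 4 comparisons). At an unadjusted p under 0.05, 0 of the 8 genes were counted in each of the 4 comparisons, and DESeq2 called 0. ATP6V0D2 is left out of this count, since the comparison in ER:RAS holds the difference for which it was chosen. Between the OIS response and the bleomycin response with the control shRNA, 0 of the 8 genes differed by edgeR, where 20.3% of 15299 genes did. The shift was -0.71 for RRAGC (SE 0.29, adjusted p = 0.0880). None is given for ATP6V0D2, whose DMSO libraries were at or under the floor in both lines. None is given for RRAGD either, since it passed the filter through the senescent libraries. RRAGC was the single gene of the 8 with an unadjusted p under 0.05, and DESeq2 called 0.

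Other genes of the pathway were counted in 4 lists written from general knowledge. Of 22 V-ATPase genes tested, 7 were higher and 1 lower in OIS with the control shRNA, where 15.5% of all genes were higher and 20.2% lower. In bleomycin senescence 9 were higher and 1 lower, where 15.4% of all genes were higher and 15.8% lower. The medians of the list were 0.56 and 0.38, against -0.08 and -0.01 for all genes. The largest rises in OIS were those of ATP6V0B (1.69), ATP6V0C (1.21) and ATP6V0A1 (1.12), all of the membrane sector, and in bleomycin senescence those of ATP6V0A1 (1.18), ATP6V0B (0.87) and ATP6V1E1 (0.80). ATP6V1G2 fell in OIS (-3.07) and ATP6V1B2 in bleomycin senescence (-0.68). With COPB2 shRNA 1, 6 V-ATPase genes were higher and 1 lower in OIS (36.9% of all genes called in either direction) and 8 higher and 1 lower in bleomycin senescence (35.2%). With COPB2 shRNA 2, 7 were higher and 2 lower in OIS (36.9%) and 12 higher and 1 lower in bleomycin senescence (40%).

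Of 32 lysosome and autophagy targets of the CLEAR network, 5 were higher and 6 lower in OIS, and 5 higher and 3 lower in bleomycin senescence, against 35.7% and 31.2% of all genes called in either direction. GLA (alpha-galactosidase A, 1.74 and 0.72) and WIPI1 (an autophagosome protein, 1.38 and 0.55) rose in both, and CTSF (cathepsin F, -2.10 and -1.30) and SCPEP1 (a serine carboxypeptidase, -1.93 and -0.88) fell in both. CTSB (cathepsin B, 1.43) rose and GABARAPL1 (-1.53) fell in OIS, while GUSB (beta-glucuronidase, -0.66) fell in bleomycin senescence. The medians of the list were -0.12 and -0.06. With a COPB2 shRNA, 5 genes were higher and 10 lower in OIS with each, and in bleomycin senescence 6 and 8 were higher and 4 and 7 lower, against 36.9% of all genes in OIS with each and 35.2% and 40% in bleomycin senescence.

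Of 17 further Rag, Ragulator and mTORC1 genes, 1 was higher and 2 lower in OIS: LAMTOR5, a Ragulator subunit, rose (0.77), and RRAGB and TSC1 (-0.95), a brake on mTORC1, fell. Of all genes, 35.7% were called there. In bleomycin senescence, where 31.2% of all genes were called, 0 were higher and 3 lower: DEPTOR (-1.25), an mTOR inhibitor, RRAGB and TSC1 (-0.54). Of 17 genes of the GATOR complexes and nutrient sensors, 2 were higher and 3 lower in OIS (35.7% of all genes called), and 4 higher and 2 lower in bleomycin senescence (31.2%). CASTOR1, an arginine sensor, rose (1.08 and 0.99) and its paralogue CASTOR2 fell (-1.22 and -0.74) in both, as did ITFG2 (-1.82 and -0.45), a subunit of the KICSTOR scaffold. Counts of CASTOR2 may be split with a near-identical copy of the gene. SEC13 rose (0.65) and SESN1, a leucine sensor of the sestrin family, fell (-1.13) in OIS, while SESN2 (0.76) and C12orf66 (0.60) rose in bleomycin senescence. SESN1 rose in bleomycin senescence (0.49, SE 0.13, adjusted p = 0.00821), and the difference between both responses was called (-1.56, SE 0.25, adjusted p = 2.00e-05). Medians of these lists were 0.26 and -0.40 in OIS and -0.07 and -0.22 in bleomycin senescence. In the knockdown comparisons no gene of the 4 lists was called.

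As ATP6V0D2, GPNMB and MITF are known from osteoclasts, macrophages and melanocytes, markers of those cells were examined. All 7 fibroblast markers were detected in every group, with a summed level of 14367 to 24419 CPM in OIS libraries. The sum of 12 macrophage and osteoclast markers was 59.6 to 87.5 CPM in OIS and 89.2 to 174 CPM in ER:RAS cells with DMSO. CTSK (cathepsin K), which fibroblasts also express, and DCSTAMP, a gene of osteoclast fusion, made up most of the sum in OIS. CTSK was at 19.5 to 47.9 CPM there. DCSTAMP was at 22.01 to 25.7 CPM in OIS libraries of the control, 27.3 to 34.2 CPM in those of shRNA 1, 21.4 to 34.9 CPM in those of shRNA 2, and at most 0.235 CPM in any library without 4OHT. CSF1R, the receptor of macrophage colony-stimulating factor, was also higher in OIS, at 0.474 to 2.45 CPM against at most 0.262 CPM with DMSO. ACP5, an osteoclast phosphatase, was at 0.760 to 1.90 CPM in OIS with the control shRNA, against 2.21 to 7.29 CPM with DMSO. With COPB2 shRNA 2 in OIS it was at 2.26 to 3.07 CPM and did not overlap the control. In that comparison 7.83% of all genes tested did not overlap. With shRNA 1 in OIS (1.83 to 2.49 CPM) ACP5 overlapped the control. Of the leukocyte genes, TYROBP had 0 counts in all OIS libraries and PTPRC at most 0.507 CPM. In bleomycin libraries PTPRC reached 1.964 CPM, against at most 0.105 CPM in IMR90 cells with DMSO, and the sum of the 12 was 34.8 to 88.6 CPM against 99.3 to 183 CPM. Of 6 melanocyte markers MLANA, TYR and SOX10 had 0 counts in OIS libraries, while PMEL was at 2.37 to 8.85 CPM there and at 0.914 to 2.73 CPM with DMSO. In bleomycin libraries the 6 summed to 3.61 to 13.6 CPM, against 0.895 to 2.0995 CPM in IMR90 cells with DMSO, so this sum was higher without overlap. PMEL reached 11.9 CPM with bleomycin, against at most 1.61 CPM in IMR90 cells with DMSO. All 6 had counts in each bleomycin group, MLANA at most 2, while MLANA, TYR and SOX10 had 0 counts in IMR90 cells with DMSO. Of 4 epithelial markers, KRT8 and KRT18 made up nearly all of a sum of 51.8 to 194 CPM in OIS. The part of other cells in these results was not tested beyond these levels.

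The genes whose group means of log2 CPM over the 12 groups were most like those of ATP6V0D2 were MAP1LC3B (Pearson r = 0.995), CACNA1B (0.990), NIPA2 (0.987), TSR1 (0.986) and PRPF3 (0.986), out of 15298 genes ranked. MAP1LC3B, which encodes the autophagosome protein LC3B and is also in the CLEAR list, was at 333 ± 30.1 CPM in OIS under the control, 427 ± 42.3 CPM under shRNA 1 and 478 ± 29.1 CPM under shRNA 2 (SD, n = 3), and at 193 ± 16.1 CPM in ER:RAS cells with DMSO. CACNA1B, a calcium channel subunit, was at 1.55 ± 0.255, 3.44 ± 0.520 and 3.26 ± 0.817 CPM in those OIS groups and at 0.240 ± 0.0988 CPM with DMSO. This order depends on the groups: over the 42 single libraries none of these 5 was among the 5 most like ATP6V0D2.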

How the data were processed

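The data are RNA-seq of poly(A) RNA, 42 libraries from IMR90 fibroblasts. The deposited table holds the raw read count of 28266 gene symbols per library, unnormalized, as the authors made it from aligned reads. The processing notes of the submitters name hg38, DRAGEN, STAR 2.7.8a and DESeq2 1.32.0, while the methods of the study describe alignment to hg19 with another aligner and counting by HTSeq, so the build behind the counts is not settled. Counting by strand is not given in the sources used here, so overlapping genes, such as MPRIP and FLCN or C4orf45 and FNIP2, may share reads. Gene positions and transcript lengths are those of GENCODE on GRCh37, matched by symbol for 25055 genes, and TMEM55B was matched to PIP4P1.

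Counts were filtered with filterByExpr, scaled by TMM and tested with the quasi-likelihood test of edgeR 4.0.16 (R 4.3.3) in 1 fit for 18 ER:RAS libraries, 1 for 24 IMR90 libraries and 1 for all 42, with p-values adjusted by Benjamini-Hochberg over all genes tested and called under 0.05. ATP6V0D2 (in bleomycin senescence only) and RRAGD, which passed the filter through senescent libraries alone, were tested against DMSO in fits with no filter. CPM used library sizes scaled over all 42 libraries. A prior count of 2 was used for log2 values of single libraries. Intervals of log2 differences are normal approximations from the SE. The fits were tested on simulated counts with known changes. The total count per library, 13148194 to 23597310, sets the floor of 3 counts.

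Named were the 10 genes, COPB2, the 5 genes most like ATP6V0D2, 4 paralogues (ATP6V0D1, TFEC, RRAGA and RRAGB) and, from each of 4 lists, up to 3 called genes with the largest rise and 3 with the largest fall with the control shRNA. A single result under this rule is not reported here. DCSTAMP, PMEL and the other markers were taken from marker lists, and those described one by one were picked after their values were seen. The genes, lists and tests were chosen with earlier results of these data known. Alternatives were DESeq2 size factors, no filter, DESeq2 1.42.0 (Wald test), the replicate number as a block, separate fits for the groups of each comparison, leaving out each library, another prior count and, added after the data had been seen, offsets per library from a spline (df 5) over transcript GC content and length. No column of the table was left out.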

Additional observations from a re-analysis of the deposited data

Results flagged for a closer look

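Each of the 10 genes was examined for single libraries far from the rest of their group in the 6 IMR90 groups of 4 libraries, 60 combinations in all, of which chance alone would mark about 1 in 20. In 4 of them the gap of the extreme library to its neighbour was over 0.829 of the range of the group. ATP6V0D2 was at 5.78 CPM in replicate 4 of bleomycin with COPB2 shRNA 1, where the next library had 1.38 CPM. MITF was at 19.9 CPM in replicate 1 of DMSO with the control shRNA (next 34.9 CPM), and FNIP1 was at 19.9 CPM in the same library (next 50.6 CPM). TFE3 was at 189.7 CPM in replicate 1 of DMSO with COPB2 shRNA 1 (next 144 CPM). The GC coefficient was 0.72 in the library with low MITF and FNIP1, 0.74 in that with high TFE3 and -0.24 in that with high ATP6V0D2. The part of library composition in these values was not tested.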

How the results depend on the processing

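Counts of the 10 genes called, ATP6V0D2 and RRAGD included, stayed within 1.5 times of those reported, in all 19 comparisons, with DESeq2 size factors, with no filter and with the DESeq2 Wald test. With the GC and length correction, 8 genes were called in OIS with the control shRNA (otherwise 4), 8 in OIS with COPB2 shRNA 1 (otherwise 3), 8 in bleomycin senescence with COPB2 shRNA 2 (otherwise 5) and 2 in the difference between the OIS and bleomycin responses (otherwise 0), these being FLCN (0.45, adjusted p = 0.0403) and RRAGC (-0.53, adjusted p = 0.0380). None of the 26 calls was lost. These include calls of ATP6V0D2 and RRAGD, which passed the filter through senescent libraries alone. They also include the knockdown calls in OIS for which ATP6V0D2 was chosen. With the replicate number as a block, 5 genes were called in OIS with COPB2 shRNA 1 (otherwise 3) and 1 in the difference between the responses (otherwise 0), and no call was lost. Over all 19 comparisons, the 10 genes gained 19 calls with the correction and 12 with the block. The shares of all genes called under these settings are not given here, so the counts show nothing particular to the set. The numbers were not taken as pairing the libraries, and the main fits hold no replicate term. After removal of group means, libraries of the same number correlated at -0.61 to 0.92. The lowest value was 0.57 for replicate 3 of ER:RAS, and 0.17 and 0.39 for replicates 1 and 3 of IMR90. Replicates 1 and 2 of ER:RAS and 2 and 4 of IMR90 also held negative values. Yet 14 of 18 ER:RAS and 23 of 24 IMR90 libraries correlated best with their own number. Whether a number marks a shared batch was not tested, so a missing call in the main fits does not show a lack of change. For COPB2 shRNA 1 and 2 in OIS the count is that of ATP6V0D2 alone, chosen for that difference, so it is a description: it was 1 each, 0 and 0 when fitted on the 6 libraries of each comparison alone, and 0 to 1 for both when single libraries were left out (0 without any 1 of the 3 control libraries or replicate 3 of shRNA 1, and without replicate 2 of the control for shRNA 2), with log2 differences of 2.51 to 3.11 and 2.56 to 3.36. Leaving out single libraries gave 5 to 8 calls in bleomycin senescence with COPB2 shRNA 2 and 0 to 1 in the difference between the responses. The RRAGC call in OIS was also lost in the smaller fit of its 6 libraries (adjusted p = 0.126), and that of FLCN with COPB2 shRNA 2 with DESeq2 size factors (0.119), no filter (0.0960) and the Wald test (0.109). The causes were not tested, beyond the fewer libraries of the smaller fits. Of the 5 genes most like ATP6V0D2, 3 were shared with a prior count of 0.5 and 0 over 42 single libraries. No result changed direction. Depth limits ATP6V0D2 and TFEC in DMSO libraries, at or near the floor of 3 counts.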
